A study of Mus musculus with 96 samples.

Results

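The transcriptome of R1 mouse ESCs was compared between cells carrying an shRNA against Wdr5 (shWdr5) and cells carrying the empty vector (shEV). The 4 libraries, 2 per group, were taken as the columns of the count table that holds the shWdr5 libraries, out of 96 samples in the whole series, which examines how the Polycomb protein RYBP and the TrxG component WDR5 act in ESCs. The table lists 37620 Ensembl genes, and 15143 of them had enough counts to be tested. Both groups were grown in ESC medium with 15% FBS and 1000 U/mL LIF, and total RNA was extracted for sequencing. Nothing states whether the libraries of a group came from separate cultures or shRNA clones, so the p-values measure only the spread between these libraries. The shRNA sequence and the time after its delivery were not given in the sources used here.

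WDR5 is a WD40-repeat protein shared by the COMPASS (SET1 and MLL) complexes that methylate H3K4 at promoters. It also belongs to the NSL acetyltransferase complex and binds MYC. In ESCs it is known as a factor of self-renewal, and in several cell types it is known to sit at a subset of ribosomal protein genes.

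Counts on genes ranged from 19731613 to 21500931 per library. The ESC markers Pou5f1, Sox2, Nanog, Zfp42, Esrrb and Klf4 were strongly expressed in every library, with Klf4 the lowest of them at 336 to 429 CPM (counts scaled to a common library size). The feeder markers Dcn and Lum and the blood marker Hbb-b1 had 0 counts in all libraries, Col3a1 had at most 1 count and Postn at most 2. Of the other feeder markers, Col1a2 stayed under 1 CPM and did not pass the test. Col1a1 was raised from 5.89 and 6.63 CPM to 11.9 and 11.7 CPM. Thy1 was lowered from 11.2 and 10.9 CPM to 2.43 and 3.46 CPM. The summed level of the fibroblast list was 1336 and 1403 CPM in shEV and 1491 and 1506 CPM in shWdr5, with 4 of its 11 tested members raised and 3 lowered. Most of that level was Fn1, at 1124 and 1184 CPM in shEV and 1211 and 1230 CPM in shWdr5. The blood and endothelial list stood at 91.6 and 89.7 CPM in shEV and 199.5 and 199.9 CPM in shWdr5, with 6 of 10 raised and most of its level carried by Pecam1, an adhesion molecule that ESCs also express. Its part in the results below was not tested. In bulk RNA, fewer cells of a type and less RNA per cell cannot be told apart.

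The knockdown itself was examined first. Wdr5 (mm9 chr2:27370677-27392055, plus strand) was present at 349.8 and 342.9 CPM in the shEV libraries and at 60.05 and 58.17 CPM in the shWdr5 libraries. The groups stood far apart, and the level fell by 2.55 on the log2 scale (SE 0.05, adjusted p = 4.69e-21, quasi-likelihood test of edgeR, Benjamini-Hochberg adjusted). Per length of the gene model, the mean level was 96.3 RPKM in shEV and 16.4 RPKM in shWdr5, so Wdr5 transcripts remained detectable. Rybp moved the other way, from 79.9 and 81.3 CPM to 120.6 and 116.7 CPM, a rise of 0.56 (SE 0.05, adjusted p = 3.81e-09, edgeR).

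The response covered much of the transcriptome. At an adjusted p under 0.05, 4777 genes were raised and 4770 were lowered, each 31.5% of the genes tested and 63% in either direction, and the median log2 fold change over all genes was -0.01. The scaling of the libraries to each other (TMM) sets the centre of these changes. A shift in RNA per cell shared by all genes would therefore not appear in them. Changes of at least 2-fold were made up of 1651 raised genes (10.9%) and 1164 lowered genes (7.69%). All counts of gene lists below are read against these shares.

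**Figure D1:**
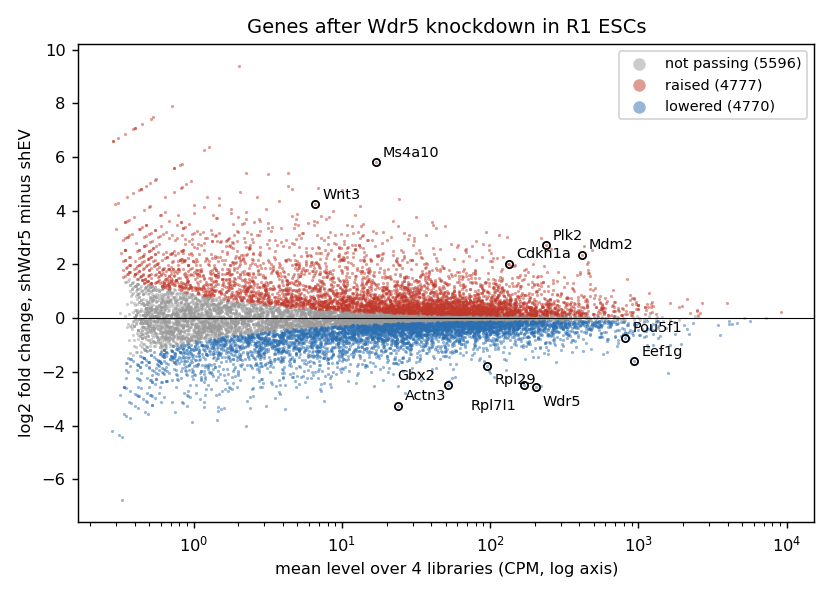
Each point is a tested gene, with its mean level over the 4 libraries on the x axis (CPM, log axis) and its log2 fold change, shWdr5 minus shEV, on the y axis. The 4777 raised and 4770 lowered genes lie on either side of 0, with more raised (1651) than lowered (1164) by at least 2-fold, and Ms4a10, Wnt3 and Plk2 lie far above 0 and Actn3, Wdr5 and Rpl7l1 far below it.

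Among genes with a mean of at least 5 CPM, the 10 largest rises were those of Ms4a10, Cacna1e, Vwce, Cd109, Wnt3, Anxa8, Mst1, Sez6, C4b and Fbp1, with log2 fold changes from 3.76 to 5.82. Ms4a10 had 0.65 and 0.51 CPM in shEV and 31.5 and 34.9 CPM in shWdr5 (log2 fold change 5.82, SE 0.17). Wnt3, a ligand of the canonical Wnt pathway, went from 0.70 and 0.61 CPM to 13.2 and 11.8 CPM (log2 fold change 4.24, SE 0.21). In both genes the groups stood far apart. Cd109 had the highest control level of the 10, with 2.43 and 1.77 CPM in shEV.

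Apart from Wdr5, the largest falls included those of Actn3, Atcay, Fgf17, Tmem121, Rln3, Acan, 2810417H13Rik and Clip3. Actn3, an alpha-actinin best known from fast skeletal muscle, had 42.7 and 43.8 CPM in shEV and 4.91 and 4.08 CPM in shWdr5 and fell by 3.26 on the log2 scale (SE 0.11). Of 15 muscle genes 6 were raised and 5 lowered: Myog was at 0.33 and 0.40 CPM in shEV and at 3.04 and 4.03 CPM in shWdr5, and Ckm was at 0.75 and 0.51 CPM against 3.27 and 5.04 CPM. Fgf17, an FGF ligand, fell from 45.5 and 47.3 CPM to 6.4 and 7.1 CPM, a change of -2.78 (SE 0.10).

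Ribosomal protein genes split in direction. They code for the subunits of the cytosolic ribosome, and of 85 tested, 50 (58.8%) were lowered and 34 (40.0%) were raised, with a median log2 fold change of -0.35. The split followed the WDR5 peaks called by ChIP-seq in another ESC line, R7.15 with intact Rybp. There, WDR5 fold enrichment over background within 2500 bp of the start site was either high or low at these genes, with only 2 of them between 10 and 20. The bounds of 10 and 20 were set after the values were seen, and the peak list is a merged one without replicates.

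Of the 45 ribosomal protein genes with a WDR5 fold enrichment of 20 or more, 43 (95.6%) were lowered and 2 were raised, with a median log2 fold change of -0.65. Of the 25 genes with a peak under 10, 23 (92%) were raised and 1 was lowered, with a median of 0.43. The 13 genes without a peak were mixed, with 7 raised and 6 lowered. Both classes had H3K4me3 peaks at every start site, with median fold enrichments of 52.2 and 50.5. Their median levels were 695 and 909 CPM. Over the 85 genes, Spearman's rho between WDR5 enrichment and log2 fold change was -0.54. For H3K4me3 enrichment it was 0.02, and for mean CPM 0.23. These are correlations across genes, which share libraries and are not independent replicates.

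Among the 552 other tested genes with a WDR5 fold enrichment of 20 or more, 205 (37.1%) were lowered and 176 (31.9%) raised, with a median log2 fold change of -0.02. Over all 15039 other genes rho was 0.01.

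**Figure D2:**
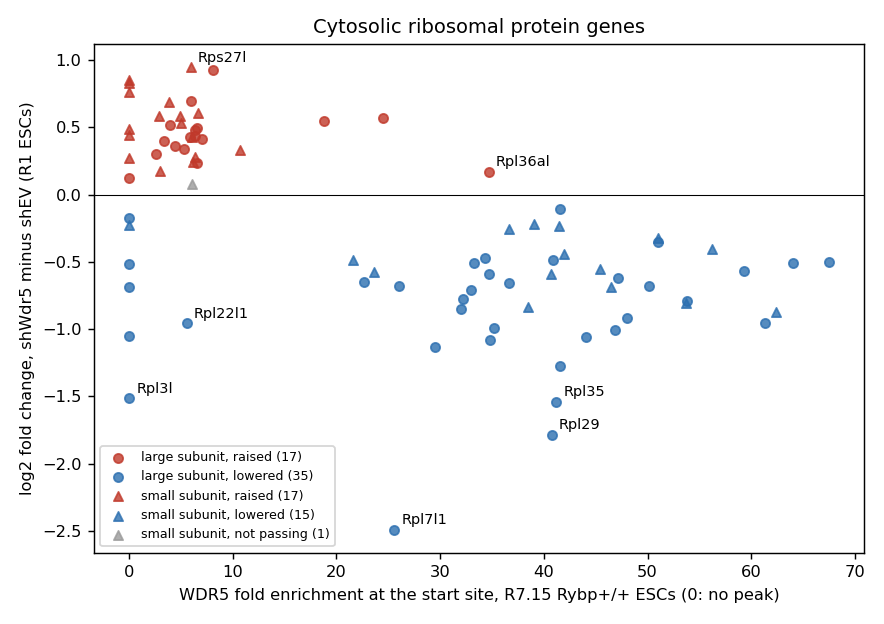
Each point is a cytosolic ribosomal protein gene, with the WDR5 fold enrichment at its start site in R7.15 Rybp+/+ ESCs on the x axis (0 where no peak was called) and its log2 fold change in R1 ESCs on the y axis, by subunit (circles and triangles) and call (colours). The 45 genes at 20 or more lie below 0 except 2, Rpl36al among them, and 24 of the 25 with a peak under 10 lie above 0 with Rpl22l1 as the exception.

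The start sites at the far ends of both classes are shown because they carry this difference. Each sequence runs from 200 bases before an annotated start to its first 20 bases, 5′ to 3′, read from mm9. Where a gene has several annotated starts, the one nearest the summit of its strongest WDR5 peak was used. Marked bases can therefore lie downstream of another start of the gene. The 3 strongly bound genes with the largest falls come first, then 2 weakly bound genes with large rises, limited to starts within 300 bp of the WDR5 summit. Capitals mark matches on either strand to CACGTG (E-box), CCGGAAG (ETS motif) or GGGCGGG (GC box), the 3 of 5 motifs searched that occur in them (an NRF1 and a YY1 motif do not).
Rpl7l1, chr17:46919586-46919805, minus strand: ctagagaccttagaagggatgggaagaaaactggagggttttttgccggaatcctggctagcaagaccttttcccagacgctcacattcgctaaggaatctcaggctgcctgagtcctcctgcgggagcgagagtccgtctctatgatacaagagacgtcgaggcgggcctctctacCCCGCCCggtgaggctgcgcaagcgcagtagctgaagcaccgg
Rpl29, chr9:106331670-106331889, plus strand: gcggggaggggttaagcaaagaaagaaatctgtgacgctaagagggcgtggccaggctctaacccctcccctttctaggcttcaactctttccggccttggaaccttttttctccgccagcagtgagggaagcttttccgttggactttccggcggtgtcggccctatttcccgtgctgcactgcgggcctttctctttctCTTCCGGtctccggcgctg
Rpl35, chr2:38860544-38860763, minus strand: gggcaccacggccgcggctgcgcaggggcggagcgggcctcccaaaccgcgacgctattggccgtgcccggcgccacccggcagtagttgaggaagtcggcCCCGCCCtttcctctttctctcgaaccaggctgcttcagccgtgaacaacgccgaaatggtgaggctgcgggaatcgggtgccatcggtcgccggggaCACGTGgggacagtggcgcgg
Rps27l, chr9:66793773-66793992, plus strand: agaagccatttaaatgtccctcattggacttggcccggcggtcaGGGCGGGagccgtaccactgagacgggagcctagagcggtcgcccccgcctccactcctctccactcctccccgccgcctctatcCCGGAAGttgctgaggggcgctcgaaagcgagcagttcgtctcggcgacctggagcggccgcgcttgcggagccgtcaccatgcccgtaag
Rps23, chr13:91062527-91062746, plus strand: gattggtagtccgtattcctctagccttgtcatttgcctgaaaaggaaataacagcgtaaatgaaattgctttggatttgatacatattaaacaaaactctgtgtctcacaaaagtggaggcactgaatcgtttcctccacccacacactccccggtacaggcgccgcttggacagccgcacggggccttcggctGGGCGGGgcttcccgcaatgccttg
All 5 held at least 1 of the motifs. The lowered genes held 14, 14 and 27 CpG dinucleotides in these 220 bases, and the raised genes 23 and 11, so the ranges overlapped.

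Rpl7l1, a paralogue of Rpl7, carried a WDR5 peak of 847 bp with a fold enrichment of 25.6. It had 290.6 and 287.7 CPM in shEV and 51.5 and 51.3 CPM in shWdr5 and fell by 2.49 on the log2 scale (SE 0.05, adjusted p = 8.04e-21, edgeR). Rpl29 (fold enrichment 40.8) had 148.6 and 148.4 CPM against 42.7 and 43.5 CPM, a change of -1.79 (SE 0.06). Rpl35 (fold enrichment 41.2) had 260.9 and 250 CPM against 84.6 and 91.3 CPM, a change of -1.54 (SE 0.05). In each of the 3 the groups were well separated. Rpl37a, Rpl24, Rpl6, Rpl27 and Rpl7 also fell by at least 2-fold, and the smallest of the 43 falls was that of Rpl12 at -0.11.

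Among the weakly bound genes, Rps27l, a paralogue of Rps27 that is also known as a p53 target, had 216.4 and 194.5 CPM in shEV and 397.5 and 395.2 CPM in shWdr5, a rise of 0.95 (SE 0.05, adjusted p = 9.89e-14, edgeR). Rps23 had 794.9 and 722.3 CPM against 1156 and 1159 CPM, a rise of 0.61 (SE 0.04). No gene of this class rose by 2-fold.

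The exceptions were few. Of the 2 raised genes of the strongly bound class, Rpl36al changed by 0.17 with a fold enrichment of 34.7. Rpl22l1 was lowered (-0.96) with a fold enrichment of 5.57. Among the genes without a peak, Rps21, Rps27 and Rps29 were raised (0.85, 0.83 and 0.76), and Rpl3l, Rpl39l and Rpl15 were lowered (-1.52, -1.05 and -0.69). The strongly bound class held 31 large-subunit and 14 small-subunit genes, and the class under 10 held 14 and 11.

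Summed over each class, the level of the strongly bound genes was 45238 and 43386 CPM in shEV and 29924 and 30056 CPM in shWdr5. That of the genes with a peak under 10 was 19589 and 18690 CPM in shEV and 25394 and 25223 CPM in shWdr5. The groups did not overlap in either class. Ribosomal protein genes have many near-identical pseudogene copies, and how the deposited counting treated reads that fit several copies was not given in the sources used here, so single levels are less certain than those of unique genes.

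Promoter motifs were counted in both classes and were not tested. In RefSeq promoters (GRCm38.p6, 250 bases before to 50 after the start), matched by symbol to 7967 tested genes, CCGGAAG was found in 13 of 30 promoters of strongly bound ribosomal protein genes and in 5 of 15 of those with a peak under 10, against 17.6% of all matched promoters. GGGCGGG was found in 16 of 30 and in 6 of 15, against 49.1%. Over all changed genes, GGGCGGG was in 54.1% of raised and 46.8% of lowered genes, and CACGTG in 10.3% and 10.8%, against 10.3% of all. In genes changed by at least 2-fold the shares were lower: CCGGAAG was in 7.98% of raised and 9.23% of lowered genes, CACGTG in 6.81% and 8.73%, and GGGCGGG in 47.3% and 38.6%.

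Other parts of the translation apparatus were lowered more often than raised. Of 21 aminoacyl-tRNA synthetases, which charge tRNAs, 18 (85.7%) were lowered and 2 were raised, with a median of -0.39. Sars went from 225.4 and 243.7 CPM to 112.1 and 113.7 CPM (log2 fold change -1.05, SE 0.05), and Nars from 330.3 and 329.0 CPM to 174.2 and 174.1 CPM (-0.92, SE 0.05). Of 75 mitochondrial ribosomal proteins 36 were lowered and 12 raised, and of 40 ribosome biogenesis factors 22 were lowered and 7 raised.

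Of 40 initiation and elongation factors 22 were lowered and 11 raised, and 6 of them carried a WDR5 peak of 20 or more, of which 5 were lowered and 1 raised. Eef1g, a subunit of the elongation factor that delivers aminoacyl-tRNA, had a fold enrichment of 42.3 and fell from 1435 and 1387 CPM to 473.5 and 458.9 CPM (-1.60, SE 0.04, adjusted p = 3.14e-19, edgeR). Eif4g3, a scaffold of cap-dependent initiation, had a fold enrichment of 25.9 and fell from 166.2 and 182.8 CPM to 38.0 and 38.2 CPM (-2.20, SE 0.06). In both genes every shWdr5 library lay under every shEV library.

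Targets of p53, the stress-activated transcription factor that restrains the cell cycle, were raised. Of 27 tested, 23 (85.2%) were raised, 15 of them by at least 2-fold, and 0 were lowered, with a median log2 fold change of 1.20. At an unadjusted p under 0.05 the counts were 23 and 0, and DESeq2 also lowered 0. Mdm2, the ubiquitin ligase that limits p53, went from 140.5 and 128.5 CPM to 706.1 and 681.9 CPM, a rise of 2.37 (SE 0.05, adjusted p = 8.23e-21, edgeR). Cdkn1a, the CDK inhibitor p21, went from 53.9 and 50.8 CPM to 213.8 and 214.1 CPM, a rise of 2.03 (SE 0.05). Plk2 and Perp rose by 2.72 and 2.76.

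The p53 transcript itself (Trp53) rose less, from 510.4 and 528.8 CPM to 682.7 and 679.0 CPM (0.39, SE 0.04). The apoptosis gene Bax did not pass the test, with 555.6 and 548.8 CPM against 567.8 and 593.4 CPM, and neither did Sesn1, Ddb2 and Xpc. None of the 27 had a WDR5 fold enrichment of 20 or more, a level that 552 of 15039 tested genes outside the ribosomal protein list reached. A WDR5 peak of any strength was present at 23 of the 27, against 10197 of 15124 tested genes.

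Genes of cholesterol synthesis and uptake were lowered. All 23 tested (100%) were lowered, 8 of them by at least 2-fold, with a median log2 fold change of -0.81. Their summed level was 1645 and 1689 CPM in shEV and 927.2 and 940.7 CPM in shWdr5. Insig1, a regulator of SREBP processing and itself a target of the pathway, went from 71.2 and 74.7 CPM to 26.9 and 28.4 CPM (-1.40, SE 0.07, adjusted p = 2.08e-14, edgeR).

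Sqle, the squalene epoxidase gene, fell from 101.5 and 107.2 CPM to 61.8 and 57.6 CPM, and Srebf2, which codes for the transcription factor of the pathway, fell by 0.54 (SE 0.05). Of the 23 genes, 2 had a WDR5 fold enrichment of 20 or more and 2 had no peak. Outside the ribosomal protein list, 552 of 15039 tested genes reached 20, and 4914 had no peak.

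**Figure D3:**
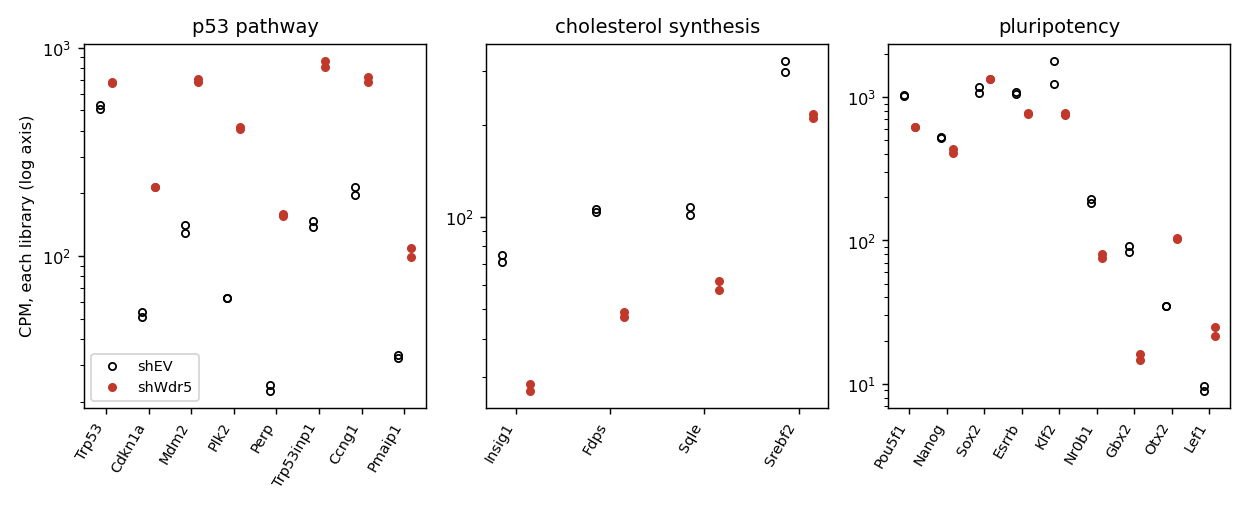
Each point is the level of a gene in a library (CPM, log axes), with shEV as open and shWdr5 as filled circles, for p53 pathway genes, cholesterol genes and pluripotency genes. The groups do not overlap in any of the genes drawn: p53 pathway genes are higher and cholesterol genes lower in both shWdr5 libraries, while pluripotency genes move in either direction.

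Serine synthesis and one-carbon metabolism supply building blocks for nucleotides. Of 17 such genes 12 (70.6%) were lowered and 4 raised. Phgdh, the first enzyme of serine synthesis, went from 188.5 and 192.7 CPM to 62.3 and 66.1 CPM (-1.57, SE 0.05), and Psat1 fell by 1.33. Mthfd1 and Aldh1l1 were raised (0.45 and 1.68). Of 14 tested transcripts encoded by mitochondrial DNA, 11 (78.6%) were raised and 0 lowered (0 also at an unadjusted p under 0.05 and by DESeq2), with mt-Nd1 at 1687 and 1522 CPM in shEV and 2595 and 2658 CPM in shWdr5 (0.71, SE 0.04). Their levels were far apart, from mt-Atp8 at 0.37 and 0.51 CPM to mt-Co1 at 3412 and 2923 CPM in shEV, and the counting of reads shared with nuclear copies was not given.

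The pluripotency network was lowered in part. Of 10 core factors 7 were lowered and 1 was raised, and of 17 naive factors 13 (76.5%) were lowered and 3 raised, with medians of -0.31 and -0.32. Pou5f1 (OCT4) went from 1015 and 1030 CPM to 614.8 and 615.3 CPM (-0.73, SE 0.04, adjusted p = 1.76e-13, edgeR). Nanog went from 519.9 and 527.2 CPM to 411.3 and 434.7 CPM (-0.31, SE 0.04), whereas Sox2 rose from 1079 and 1188 CPM to 1335 and 1346 CPM (0.24, SE 0.04). Pou5f1 had an H3K4me3 peak but no WDR5 peak at its start in R7.15 cells.

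The falls among naive factors were uneven. Gbx2, a STAT3-responsive factor of naive self-renewal, went from 83.6 and 91.8 CPM to 14.6 and 16.2 CPM (-2.51, SE 0.08), and Nr0b1 from 183.3 and 195.7 CPM to 80.1 and 75.1 CPM (-1.29, SE 0.05). Klf2 fell as well (-0.99, SE 0.09), but its shEV libraries differed, with 1236 and 1804 CPM. Of the 3 raised members, Dppa3 rose most, from 0.47 and 1.11 CPM to 5.05 and 3.41 CPM (2.43, SE 0.32), and Klf4 and Tbx3 rose by 0.22 and 0.18. Stat3 did not pass the test (-0.05, SE 0.05).

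Formative and primed genes went mostly the other way, with 8 of 11 (72.7%) raised and 2 lowered, and a median of 0.69. Otx2, a factor of the formative state, rose from 34.9 and 34.6 CPM to 103.0 and 104.2 CPM (1.58, SE 0.06), and Lef1 rose by 1.34. Sox3 was lowered (-1.48). Fgf5, the usual marker of this state, was raised (1.21, SE 0.52) but had only 4 and 11 counts in shEV and 20 and 16 in shWdr5. Of 10 two-cell-like genes 6 were lowered and 0 raised, among them Zscan4d (15.5 and 13.0 CPM against 5.47 and 5.23 CPM). At an unadjusted p under 0.05 and by DESeq2 0 were raised too, and the Zscan4 genes are near-identical copies whose counts can be shared.

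Among lineage genes, no list moved as a whole. Of 16 primitive endoderm genes 9 were raised and 5 lowered, with Gata6 at 2.29 and 2.68 CPM in shEV and 18.9 and 17.8 CPM in shWdr5 (2.88, SE 0.14). Of 18 mesoderm genes 6 were raised and 8 lowered, and T had under 1 CPM in all libraries. Of 30 germ cell and meiosis genes 18 (60%) were raised and 4 lowered, with Dazl, an RNA-binding protein of germ cells, at 9.03 and 10.5 CPM in shEV and 55.5 and 57.2 CPM in shWdr5 (2.53, SE 0.09). Sycp3 of the same list was lowered (-1.19, SE 0.17).

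Signalling targets differed between pathways. Of 18 tested targets of YAP, the effector of the Hippo pathway, 14 (77.8%) were raised and 2 lowered, with a median of 1.18. Ptpn14 went from 116.8 and 114.6 CPM to 744.0 and 748.9 CPM (2.69, SE 0.05, adjusted p = 1.02e-21, edgeR), and Ccn2 from 6.78 and 6.68 CPM to 39.0 and 36.5 CPM (2.49, SE 0.10). Of 19 Wnt targets and TCF factors 13 were raised and 6 lowered, and the pathway's own feedback genes went both ways, with Axin2 lowered (-0.75) and Dkk1 and Nkd1 raised (2.97 and 0.59). Of 16 FGF and ERK feedback genes 8 were lowered and 4 raised, with Egr1 and Spry4 falling by 2.01 and 1.41. Of 34 collagen genes 24 (70.6%) were raised and 6 lowered, with Col4a2 at 13.3 and 15.7 CPM in shEV and 56.8 and 62.4 CPM in shWdr5.

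Lists of the cell cycle differed in direction. Of 38 replication licensing and fork genes 23 (60.5%) were lowered and 4 raised, all by less than 2-fold. Of 8 CDK inhibitors 4 were raised and 2 lowered. Of 32 replication-dependent histone genes 12 were raised and 0 lowered, with 1 lowered at an unadjusted p under 0.05 and 0 by DESeq2, and their summed level was only 42.9 and 42.8 CPM in shEV and 65.1 and 65.2 CPM in shWdr5. Of 27 cyclins, CDKs and their regulators 15 were lowered and 7 raised. Ccne1 (cyclin E1) went from 210.2 and 193.6 CPM to 52.3 and 53 CPM (-1.94, SE 0.06). E2f3, which had a WDR5 fold enrichment over 50, went from 65.5 and 64.9 CPM to 14.8 and 18.0 CPM (-1.99, SE 0.08). Rb1, which restrains E2F factors, rose from 10.2 and 11.0 CPM to 59.3 and 53.8 CPM (2.41, SE 0.09). Myc fell by 1.24 (SE 0.07) and Mycn by 0.11 (SE 0.05).

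**Figure D4:**
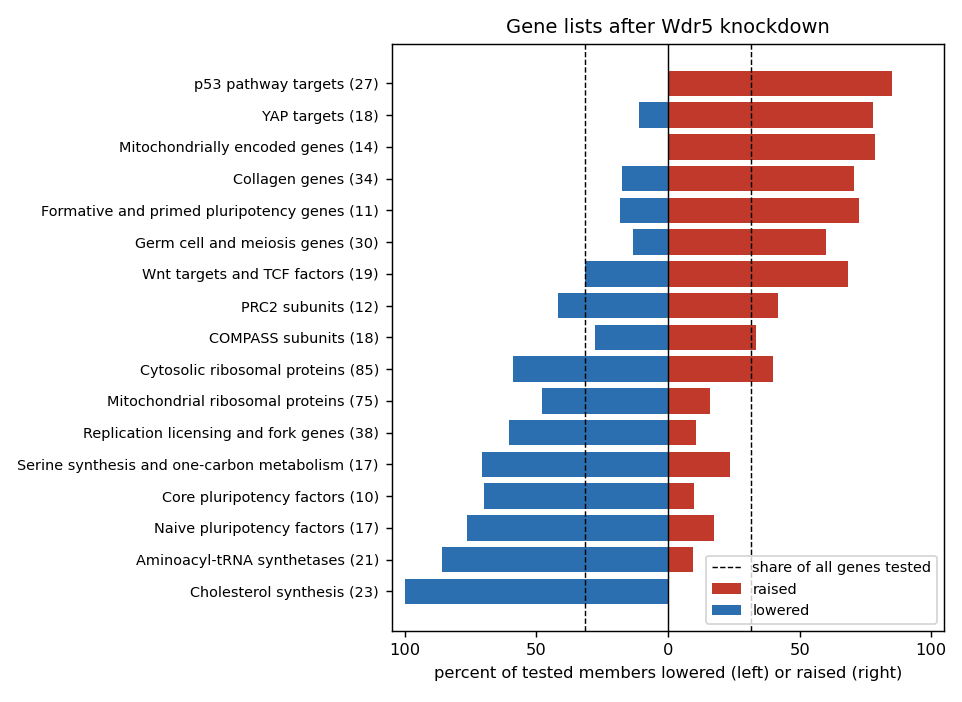
Bars give the percent of tested members of each gene list that were lowered (left) or raised (right) after Wdr5 knockdown, with the number tested in brackets, and dashed lines mark the share over all genes tested (31.5% each way). Cholesterol synthesis reaches 100% lowered and p53 targets 85.2% raised, while COMPASS subunits stand at 33.3% raised and 27.8% lowered.

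Of 18 COMPASS subunits 6 were raised and 5 lowered, and 0 passed 2-fold in either direction. The shared core subunits Rbbp5 and Dpy30 did not pass the test (0.00 and 0.03), and Ash2l was lowered slightly (-0.11, SE 0.04). Of the catalytic subunits Kmt2a and Kmt2d were raised (0.72 and 0.64) and Setd1b was lowered (-0.81). Of 11 NSL and other WDR5 partners 5 were raised and 1, Hdac3, was lowered (-0.88).

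Polycomb genes were mixed. Of 12 PRC2 genes 5 were raised and 5 lowered. Epop, a PRC2 accessory protein of ESCs, had 2194 and 2920 CPM in shEV and 608.3 and 635.2 CPM in shWdr5 (-2.04, SE 0.08), with shEV libraries that differed from each other. The PRC1 genes Bmi1 and Pcgf3 rose by 1.81 and 1.25, and Rnf2 and Ring1 did not pass the test.

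WDR5 peaks were then set beside the changes of all genes. Of 10197 tested genes with a peak, 32.9% were raised and 33.0% lowered, and 7.73% and 5.26% changed up or down by at least 2-fold. Of 4927 genes without one, 28.8% and 28.5% were raised and lowered, and 17.4% and 12.7% changed by at least 2-fold. The genes with a peak were expressed more highly (median 31.9 CPM against 3.03 CPM). Genes were therefore also split into 5 equal groups by mean level. In each of the 5, more genes without a peak than with one were raised by at least 2-fold, from 20.8% against 17.7% at the lowest level to 10.2% against 4.55% at the highest, and the same held for lowered genes (15.7% against 13.6% and 2.18% against 2.0%). The share of all raised genes did not keep its order: it was higher without a peak in the lowest, the second and the highest group (42.5% against 36.9% in the highest). These shares are descriptions without a test.

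The knockdown was set beside knockout of Rybp in floxed R7.15 ESCs (5 µM 4-OHT for 4 days, 2 libraries per group, with their own Rybp+/+ controls). The difference of the 2 effects was tested by an interaction term in edgeR, and 8999 of 17627 genes (51.1%) differed. The depleted protein, the cell line, knockdown against knockout, 4-OHT (listed for the knockout libraries only) and the sequencing of each table cannot be told apart in it. The fibroblast (feeder) list was raised for 21 of 21 genes in the knockout, with a median of 1.02 against 0.26 in the knockdown, and its part in the differences was not tested.

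Ribosomal protein genes were compared first. Of the 45 strongly bound genes, 3 were lowered and 2 raised in the knockout, where 21.2% of all genes were lowered and 21.9% raised, with a median log2 fold change of -0.03. The difference between both effects was below 0 for 43 of them, against 26.1% of all genes. Rpl29 changed by -1.78 in the knockdown and 0.03 in the knockout (difference -1.81, SE 0.06, adjusted p = 5.39e-20, edgeR). Of the 25 genes with a peak under 10, 23 differed in the other direction, against 24.9% of all genes.

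The p53 targets had a median of 1.21 in the knockdown and 0.11 in the knockout in the joint fit. In the knockout 14 of 27 were raised and 7 lowered, and for 24 of 27 the difference was above 0. Mdm2 changed by 2.37 and 0.31 (difference 2.06, SE 0.06, adjusted p = 3.73e-21, edgeR). Most cholesterol genes were lowered in both, with 17 of 23 lowered and 2 raised in the knockout and medians of -0.80 and -0.31, and for 18 the difference between both effects was below 0. Otx2 went in opposite directions, by 1.58 in the knockdown and -1.79 in the knockout (difference 3.38, SE 0.09, adjusted p = 5.27e-22, edgeR).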

How the data were processed

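RNA-seq of R1 ESCs (2 shEV and 2 shWdr5 libraries) was analysed from the counts per gene deposited by the authors, who trimmed reads with Trim Galore 0.6.6, aligned them to mm9 with STAR 2.6.1b and counted them with htseq-count 2.0.1, without normalization. Rows of no gene were removed: reads assigned to no feature were 6.62% to 9.00% of a library. The strand setting was not given in the sources used here. ChIP-seq peaks of WDR5, H3K4me3 and RING1B were used as deposited, with fold enrichment (a ratio over background) and the -log10 q from the authors' MACS2 2.1.1 on merged replicates (RING1B: 1 library, caller not given). The read depth behind them is unknown.

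Counts were filtered (filterByExpr), scaled by TMM and tested by quasi-likelihood in edgeR 4.0.16 (R 4.3.3), with p-values adjusted after Benjamini-Hochberg, without covariates, at an adjusted p under 0.05. CPM values are TMM-scaled. RPKM divides them by the gene length column deposited by the authors. The members and the 50 gene lists were chosen with earlier results of these data known. Named genes had an adjusted p under 0.05, a mean of at least 5 CPM and groups that did not overlap: the 10 largest rises and falls, the core genes of each list with its 2 largest rises and falls, and Wdr5 and Rybp. Members named beyond these, such as Rpl35, Rps23, Srebf2, Dppa3, Dkk1, Nkd1 and the exceptions among ribosomal protein genes, were chosen after their values were seen. Of 37620 IDs, 37205 matched a symbol, and 13 listed genes had no match. Some genes that the rule names are not reported here. Start sites came from the mm9 annotation, and enrichment is the strongest peak within 2500 bp.

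The test was checked on simulated counts over 14826 genes for this comparison. In them 66, 65 and 61 genes were changed by 0.5, 1 and 2 on the log2 scale, and 14634 were unchanged. The test recovered 65.2%, 84.6% and 100% of the changed genes and called 0.103% of unchanged genes. In the data 63% of genes were called. The simulated rates depend on the share of changed genes, so they do not carry over to this comparison. The shEV libraries stand also in the table of the Rybp knockdown, where they have about double the counts. As an alternative these columns, DESeq2 1.42.0, other scaling and filters, a replicate block and leaving out each library were tried. The Rybp knockout counts, deposited likewise, entered only the interaction fit over 8 libraries.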

Additional observations from a re-analysis of the deposited data

Results flagged for a closer look

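The share of reads that fell outside annotated genes is not part of the comparisons above. It was 9.00% and 8.55% in the shWdr5 libraries, above the 6.83% and 6.62% of both shEV libraries. Which sequences these reads came from was not tested. Groups of 2 libraries are too small for a search for libraries far from the others.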

How the results depend on the processing

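The fall of Wdr5 kept its direction and passed the test under all alternatives. The count of genes changed by Wdr5 knockdown, 9547 in the report, was 7604 with DESeq2 and 8272 to 9020 without any 1 library, and 2815 (1651 raised and 1164 lowered) when a change of at least 2-fold was also required. Replicate numbers were shared between groups, but libraries with the same number did not deviate together (correlation 0.02), so they share only a number; the replicate block gave 9865 changed genes. Of 1100 counts of list members under the alternatives, 1060 were within 1.5 times the reported ones and 40 were not. Among lists given above, lowered mesoderm genes were 4 without shEV replicate 2 and 5 without shWdr5 replicate 2 or with DESeq2, against 8, lowered muscle genes were 3 with DESeq2, against 5, and raised histone genes were 6 with a minimum of 1 CPM, against 12. The other such counts moved by 1 gene: raised core factors to 2, raised two-cell-like and lowered histone genes to 1 each (all without shEV replicate 2), raised aminoacyl-tRNA synthetases to 1 (without either shWdr5 library) and lowered YAP targets to 1 (with DESeq2, or without shEV replicate 1 or shWdr5 replicate 2). The replicate block also gave 2 raised core factors. With only the stronger WDR5 peaks, 2014 raised and 1979 lowered genes had one at the start, since fewer genes are then counted. Lowered ribosomal protein genes with strong WDR5 peaks numbered 42 or 43 in every alternative fit, and, in alternatives chosen after seeing the data, 37 of 38 at a bound of 30 and 43 of 46 at a bound of 15. Raised p53 targets numbered 23 or 24 and lowered cholesterol genes 22 or 23 in every alternative fit. Of 245 named genes 0 reversed under any alternative, and those that no longer passed were 14 with DESeq2, 10 and 7 without shEV replicate 1 and 2, 12 and 14 without shWdr5 replicate 1 and 2, and at most 3 under the other alternatives. With 2 libraries per group, changes of 0.5 on the log2 scale were missed in part in the simulated counts.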
